A study of Mus musculus with 4 samples.

Results

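Chemokine and chemoattractant receptors are described here by 9 genes, *Ccr1*, *Ccr2*, *Cxcr2*, *Cxcr4*, *Cx3cr1*, *Fpr1*, *Fpr2*, *C5ar1* and *Ltb4r1*, chosen by name from the 24346 genes measured. All 9 were found in the table of each library. The cells were *in vitro* MDSCs, immature myeloid cells grown from the BM of female C57BL/6J mice aged 6 to 8 weeks, with 40 ng/ml GM-CSF for 4 days. The study asked how gene expression differs between MDSCs that did or did not also receive G-CSF. The groups compared were Control (GM-CSF without G-CSF, 2 libraries) and G-CSF (GM-CSF with 5 ng/ml G-CSF, 2 libraries). The whole culture was sequenced unsorted, so each value is an average over every cell type present.

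These receptors sit in the cell membrane, cross it several times and couple to inhibitory G proteins. When a ligand binds, the G protein splits and its freed subunits start actin growth at the side of the cell that faces the source, so that the cell crawls toward it. The same signal draws arrestins and receptor kinases to the receptor, which stop it and take it from the surface. In bone marrow, CXCR4 holds myeloid cells near stromal cells that make CXCL12 and CXCR2 draws neutrophils out into the blood, while CCR2 is needed for classical monocytes to leave. Formyl peptide, complement C5a and leukotriene B4 receptors act near the end of the route, where they read the products of bacteria and of damaged tissue.

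Values are FPKM, reads divided by transcript length and by all reads mapped in that library, so levels of different genes can be set side by side. From the steps between the lowest values, the libraries held an estimated 13400000 and 14250000 mapped reads in Control and 12450000 and 15700000 mapped reads with G-CSF. For the test, limma was applied to log2(FPKM + 0.1) of the 11734 genes with enough reads, and a gene passed the test at a Benjamini-Hochberg adjusted p under 0.05. The small addition of 0.1 FPKM pulls the fold change of barely expressed genes toward 0. Of all genes tested, 1400 passed as lower and 1528 as higher with G-CSF. Although the labels' extraction protocol names liver, 6 of 8 hepatocyte genes, among them the albumin gene *Alb*, were listed at 0 in every library, and the myeloid gene *S100a8* stood at 25564.8 FPKM or more.

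With G-CSF, 6 of the 9 receptors fell and none rose (limma, where 0 were higher even at an unadjusted p under 0.05, and voom also called 0 higher). *Fpr2* fell by 36.7%, *Cxcr2* by 24.5%, *C5ar1* by 22.5%, *Cxcr4* by 17.1%, *Ltb4r1* by 16.2% and *Ccr1* by 12.8% (limma, adjusted p between 0.00492 and 0.0452). *Fpr1*, *Ccr2* and *Cx3cr1* did not pass. Across all genes tested, 11.9% passed as lower and 25.0% in either direction. In each of the 9 the libraries of the groups did not overlap, which held for 66.5% of all genes tested. No receptor changed by more than 2-fold with an adjusted p under 0.05, which 1.36% of all genes did. The median log2 fold change of the 9 was -0.27, against 0.003 over all genes tested. The summed level of the 9 was 863.8 and 904.6 FPKM in Control and 690.5 and 731.7 FPKM with G-CSF, so that both G-CSF libraries lay below both Control libraries. A smaller share of cells of a type that carries a receptor and less receptor RNA per cell cannot be told apart in such bulk libraries.

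**Figure D1:**
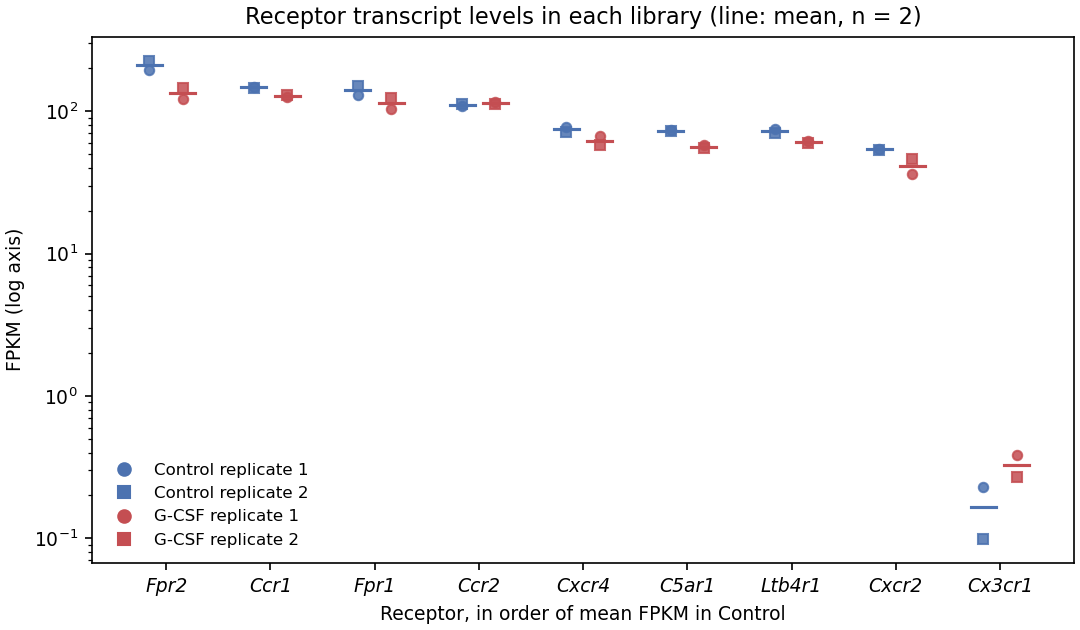
FPKM (log axis) of the 9 receptors in each library, in the order of their mean in Control, with circles for replicate 1, squares for replicate 2 and a line at each mean (n = 2). The 8 receptors on the left lie between 36.108 and 226.948 FPKM, and *Cx3cr1* lies below 0.4 FPKM in every library.

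Except for *Cx3cr1*, the receptors were among the well expressed genes of these cultures. In Control the order of mean levels was *Fpr2*, *Ccr1*, *Fpr1*, *Ccr2*, *Cxcr4*, *C5ar1*, *Ltb4r1*, *Cxcr2* and *Cx3cr1*. The libraries of *Ccr1* and *Fpr1* overlapped, and so did those of *Cxcr4*, *C5ar1* and *Ltb4r1*, so these neighbours could not be ordered. With G-CSF, *Fpr2* overlapped with *Ccr1* and *Ccr2* with *Fpr1*, and the top of the order was no longer resolved. Averaged over the 4 libraries, *Fpr2* stood above 95.8% of the genes tested, *Ccr1* above 94.6% and *Fpr1* above 94.2%. *Cxcr2*, the lowest of the 8, was above 83.3% and *Cx3cr1* above only 1.12%. *Fpr2* made up 22.5% and 25.1% of the summed FPKM of the 9 in the Control libraries, against 17.6% and 19.9% in the G-CSF libraries. The share of *Ccr2* was 12.5% and 12.4% in the Control libraries, against 16.7% and 15.3% in the G-CSF libraries.

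The formyl peptide receptors bind short peptides that start with formyl-methionine, the mark of proteins made by bacteria and mitochondria. *Fpr2* also responds to host proteins such as annexin A1 and cathelicidin. *Fpr2* stood at 194.307 and 226.948 FPKM in Control and at 121.619 and 145.36 FPKM with G-CSF. Both G-CSF libraries were below both Control libraries, as in 32.6% of all genes tested. The mean went from 211 ± 23.1 to 133 ± 16.8 FPKM (SD, n = 2 each), on the log2 scale a difference of -0.66 ± 0.102 SE (limma, adjusted p = 0.00785). *Fpr2* had the largest fall of the 9 and was, with *C5ar1*, one of the 2 that passed under each of 12 other ways of processing. *Fpr1*, the classical high-affinity receptor, stood at 129.925 and 151.553 FPKM in Control and at 104.056 and 123.536 FPKM with G-CSF. Its groups did not overlap either, but its log2 fold change of -0.31 (95% interval -0.55 to -0.07, standard error 0.0997) had an adjusted p of 0.0652 (limma). *Fpr1* passed without Control replicate 1 (adjusted p = 0.0279) and without G-CSF replicate 2 (adjusted p = 0.0221). The log2 difference was smaller without Control replicate 2 (-0.196, adjusted p = 0.198) and without G-CSF replicate 1 (-0.184, adjusted p = 0.218, limma).

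The ratio of *Fpr1* to *Fpr2* was nearly the same in the replicates of a group, and the groups did not overlap. The Control libraries gave 0.669 and 0.668, and the G-CSF libraries gave 0.856 and 0.85. On the log2 scale the ratio was 0.35 higher with G-CSF (pooled SD 0.005), and an exact permutation test over the 4 libraries gave p = 0.33 (two-sided), the smallest that 2 against 2 libraries allow. In both groups the second library was higher than the first for each gene, by a like factor, which the ratio removes.

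Both genes lie side by side on chromosome 17 of GRCm38, *Fpr1* on the minus strand from 17876471 to 17883940 and *Fpr2* on the plus strand from 17887824 to 17893952, so that they are read away from each other across 3883 bases. In each gene the coding part lies in 1 exon of the main transcript. Their coding sequences were identical at 66.0% of aligned positions. Of the other 4 receptor genes of the list with values that follow on this chromosome, *Fpr3*, *Fpr-rs4*, *Fpr-rs6* and *Fpr-rs3*, all were listed at 0 in all 4 libraries. *Fpr-rs7*, also on the list, is named because it had no values. *Fpr3*, which the annotation lets start inside *Fpr2*, is 88.1% identical to it in coding sequence, and 20.9% of the 75-base windows of *Fpr2* transcripts also occur in *Fpr3* or *Gm5966*. How reads shared by these genes were assigned is not given in the sources used here, and the level of *Fpr2* is uncertain to that extent. *Fpr1* shared none of its windows with another gene.

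The promoters of the pair are shown because these neighbours point away from each other and *Fpr2* passed the test while *Fpr1* did not. Each covers 250 bases before and 50 bases after the start of the gene in RefSeq (GRCm38.p6), read 5′ to 3′ on the strand of the gene, at chr17:17887574-17887873 for *Fpr2* and chr17:17883890-17884189 for *Fpr1*. Capitals mark matches to TTCNNNGAA, the palindrome bound by STAT factors, through which the G-CSF receptor signals.
Fpr2 promoter: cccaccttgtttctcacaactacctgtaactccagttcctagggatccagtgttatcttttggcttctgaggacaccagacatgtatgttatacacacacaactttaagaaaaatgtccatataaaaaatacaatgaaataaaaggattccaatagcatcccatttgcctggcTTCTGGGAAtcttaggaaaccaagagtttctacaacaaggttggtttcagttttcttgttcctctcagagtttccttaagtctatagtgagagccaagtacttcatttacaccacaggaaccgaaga
Fpr1 promoter: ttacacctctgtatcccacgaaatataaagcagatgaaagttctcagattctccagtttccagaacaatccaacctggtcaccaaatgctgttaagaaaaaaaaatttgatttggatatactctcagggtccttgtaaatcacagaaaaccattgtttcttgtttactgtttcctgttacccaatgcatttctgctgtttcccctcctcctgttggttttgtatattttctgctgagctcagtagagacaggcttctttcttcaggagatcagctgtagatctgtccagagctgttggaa
*Fpr2* held 1 match, which begins 77 bases before the start site, and *Fpr1* held none. The STAT letters were found on either strand in 8.3% of the 32851 mouse promoters in the table and in 1 of the 9 receptor promoters. TTGCNNAA, the letters of C/EBP factors, were found in 10.8% of all promoters and in 0 of the 9, and GAGGAAG, those of PU.1, in 13.6% and in 1 of the 9, *Ltb4r1*. The motifs do not overlap in these promoters, and a match is only a run of letters.

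*Ccr1* and *Ccr2* encode CC chemokine receptors. CCR1 binds CCL3, CCL5 and, in mice, CCL6 and CCL9, and CCR2 binds CCL2, CCL7 and CCL12. *Ccr1* stood at 149.211 and 146.217 FPKM in Control and at 126.475 and 131.092 FPKM with G-CSF. Both G-CSF libraries were lower, and the mean fell from 148 ± 2.12 to 129 ± 3.26 FPKM (SD, n = 2 each), on the log2 scale a difference of -0.20 ± 0.0436 SE (limma, adjusted p = 0.0215). Its small change lost the call without Control replicate 1 (adjusted p = 0.0878), without Control replicate 2 (0.0536) and without G-CSF replicate 1 (0.0922). *Ccr2* stood at 108.366 and 111.872 FPKM in Control and at 115.549 and 112.277 FPKM with G-CSF. Its G-CSF libraries were both above its Control libraries, as in 33.9% of all genes, although the nearest pair nearly touched. The log2 fold change of *Ccr2* was 0.05 with a 95% interval from -0.057 to 0.155 (standard error 0.0443, adjusted p = 0.453, limma), so that a fall as large as that of *Ccr1* lay outside the interval. The ratio of *Ccr1* to *Ccr2* was 1.38 and 1.31 in the Control libraries, against 1.09 and 1.17 in the G-CSF libraries, a log2 difference of -0.25 (pooled SD 0.06, exact permutation test, two-sided, p = 0.33, the smallest possible).

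The chemokine receptor genes form a row on chromosome 9, in which *Ccr1* and *Ccr2* lie apart with nearly silent genes between them. From *Ccr9* through *Cxcr6* and *Xcr1*, the first genes stood at 0.398 FPKM or less in every library. *Ccr1* follows (minus strand, 123962124 to 123968692), then *Ccr1l1* and *Ccr3*, at 0.146 FPKM or less. *Ccr2* comes after them (plus strand, 124101950 to 124113557). The coding sequences of *Ccr1* and *Ccr2* were identical at 59.4% of aligned positions, and no window of *Ccr1* occurs in another gene.

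**Figure D2:**
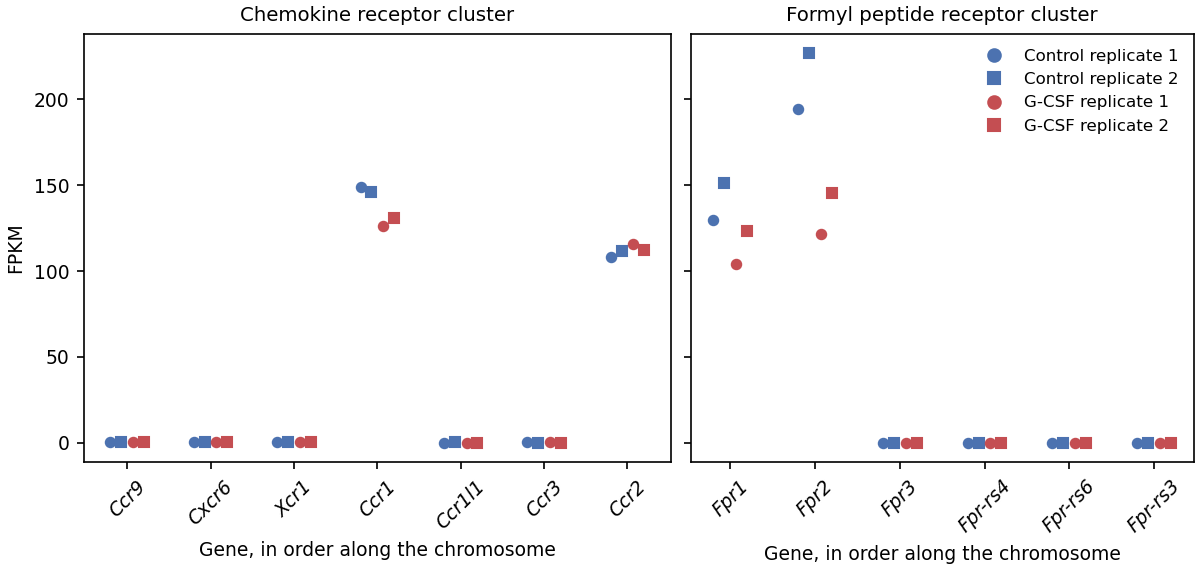
FPKM of receptor genes of the chromosome 9 row (left) and of the chromosome 17 row (right) in each library, in their order along the chromosome and not to scale in distance. *Ccr1* and *Ccr2* stand at 108.366 FPKM or more, the other genes drawn on the left at 0.398 FPKM or less, and *Fpr1* and *Fpr2* stand beside genes listed at 0.

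The promoters of *Ccr1* and *Ccr2* are shown as a pair from the same row, one of which fell while the other did not pass. They cover the same 300 positions around the start site, at chr9:123968643-123968942 for *Ccr1* (minus strand) and chr9:124101933-124102232 for *Ccr2* (plus strand), and have no capitals because neither holds any of the 3 motifs.
Ccr1 promoter: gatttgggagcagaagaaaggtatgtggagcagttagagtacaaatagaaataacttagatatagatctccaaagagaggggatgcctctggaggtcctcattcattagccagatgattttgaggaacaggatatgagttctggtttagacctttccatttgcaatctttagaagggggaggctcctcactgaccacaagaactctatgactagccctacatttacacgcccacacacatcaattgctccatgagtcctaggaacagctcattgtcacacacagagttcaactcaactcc
Ccr2 promoter: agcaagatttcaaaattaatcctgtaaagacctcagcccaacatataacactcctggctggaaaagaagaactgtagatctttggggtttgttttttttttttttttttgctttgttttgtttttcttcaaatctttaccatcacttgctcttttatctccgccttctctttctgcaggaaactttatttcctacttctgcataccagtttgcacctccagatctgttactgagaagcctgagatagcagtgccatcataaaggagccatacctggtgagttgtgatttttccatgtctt
G and C made up 44.0% of the *Ccr1* window and 38.0% of the *Ccr2* window.

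*Cxcr2* and *Cxcr4* encode the receptors with opposed parts in the release of neutrophils, and both fell. *Cxcr2*, the receptor for CXCL1, CXCL2 and related chemokines, stood at 54.647 and 53.487 FPKM in Control and at 36.108 and 46.033 FPKM with G-CSF. The G-CSF libraries were below Control but differed from each other more than the Control libraries did. On the log2 scale it differed by -0.41 ± 0.106 SE (limma, adjusted p = 0.0354). It was -0.23 without G-CSF replicate 1 (adjusted p = 0.0522) and -0.58 without G-CSF replicate 2 (adjusted p = 0.00434), and the call was also lost without Control replicate 1 (0.0761) or 2 (0.057). *Cxcr4*, the receptor for CXCL12, stood at 78.216 and 71.957 FPKM in Control and at 66.641 and 57.999 FPKM with G-CSF. All G-CSF values were lower, with a log2 difference of -0.27 ± 0.077 SE (limma, adjusted p = 0.0452) that did not pass without Control replicate 1 (0.147) or G-CSF replicate 2 (0.141).

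For *Cxcr2* over *Cxcr4*, the Control libraries had ratios of 0.699 and 0.743 and the G-CSF libraries of 0.542 and 0.794. The groups overlapped, and the log2 ratio differed by -0.14 with a pooled SD of 0.279 (exact permutation test, two-sided, p = 1). Its sign rested on 1 library, as the difference was 0.14 without G-CSF replicate 1 and -0.41 without G-CSF replicate 2. *Ccr2* over *Cxcr2*, a monocyte receptor against a neutrophil receptor, was 1.98 and 2.09 in the Control libraries, against 3.2 and 2.44 in the G-CSF libraries. Here the log2 ratio was 0.46 higher with G-CSF (pooled SD 0.2, exact p = 0.33, two-sided, the smallest possible), and the difference was 0.65 without G-CSF replicate 2 and 0.26 without G-CSF replicate 1. *Cxcr2* lies on chromosome 1 of GRCm38 from 74153989 to 74161246, and its neighbour *Cxcr1*, 30538 bases further on, stood at 0.559 FPKM or less.

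**Figure D3:**
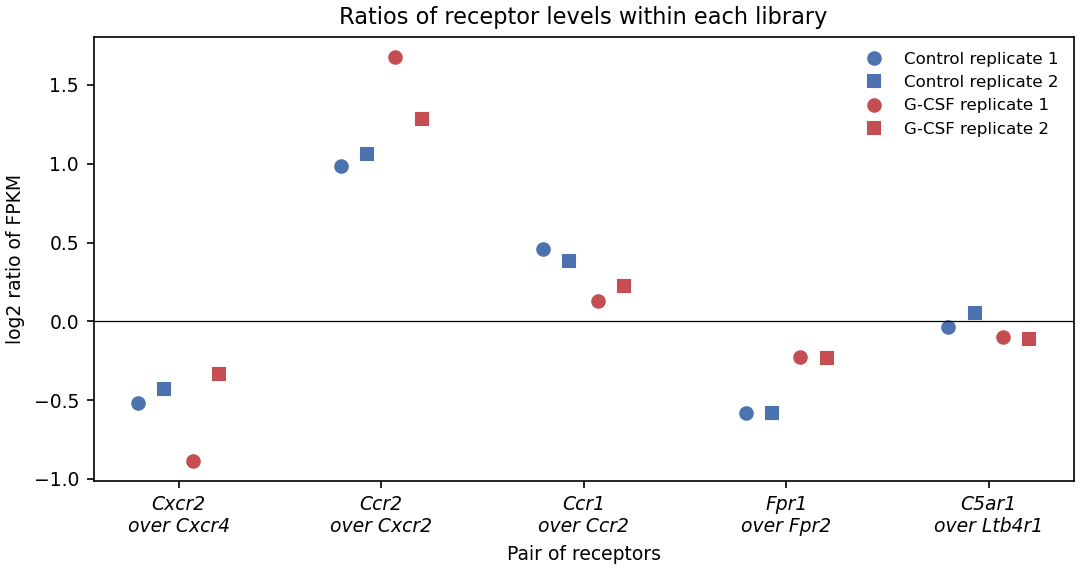
Log2 ratio of the FPKM of 5 pairs of receptors in each library, with circles for replicate 1 and squares for replicate 2. The groups are apart in 4 pairs and overlap for *Cxcr2* over *Cxcr4*, and the libraries of a group nearly coincide for *Fpr1* over *Fpr2*.

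*C5ar1* encodes the receptor for the complement fragment C5a, and *Ltb4r1* the high-affinity receptor for leukotriene B4, a lipid that neutrophils release to call others. *C5ar1* stood at 73.572 and 72.503 FPKM in Control and at 57.815 and 55.3 FPKM with G-CSF. The libraries of each group lay close together and far from those of the other, and the log2 fold change of -0.37 had the smallest p of the 9 (standard error 0.0471, adjusted p = 0.00492, limma). With any library left out it remained between -0.40 and -0.34 and passed. *Ltb4r1* stood at 75.289 and 69.931 FPKM in Control and at 61.846 and 59.816 FPKM with G-CSF, all lower, with a log2 difference of -0.25 ± 0.0537 SE (limma, adjusted p = 0.0191). It did not pass without Control replicate 1 (0.0816) or G-CSF replicate 2 (0.0616). The ratio of *C5ar1* to *Ltb4r1* was 0.977 and 1.04 in the Control libraries, against 0.935 and 0.925 in the G-CSF libraries, a log2 difference of -0.11 (pooled SD 0.043, exact permutation test, two-sided, p = 0.33, the smallest possible).

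Each of these genes has a paralog beside it. *C5ar2* encodes a C5a receptor that does not couple to G proteins. On chromosome 7 it is separated by 2588 bases from *C5ar1* (minus strand, 16246743 to 16259540). Both genes are on the minus strand, and *C5ar2* follows *C5ar1* in the direction of reading. *C5ar2* stood at 5.975 and 6.125 FPKM in Control and 5.023 and 5.144 FPKM with G-CSF, and its log2 difference of -0.25 ± 0.0925 SE missed the threshold (limma, adjusted p = 0.0955). *Ltb4r2*, the low-affinity leukotriene B4 receptor, ends 823 bases before *Ltb4r1* on chromosome 14 (plus strand, 55765962 to 55768494) and stood at 0.303 FPKM or less. No window of *C5ar1* or *Ltb4r1* occurs in another gene.

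*Cx3cr1*, which encodes the fractalkine receptor of patrolling monocytes, resident macrophages and microglia, was close to undetected. It stood at 0.231 and 0.099 FPKM in Control and at 0.385 and 0.271 FPKM with G-CSF, on an estimated 11 and 5 reads in Control and 17 and 15 reads with G-CSF. The G-CSF libraries were the higher ones. Its log2 fold change of 0.725 had a 95% interval from -0.178 to 1.628 (standard error 0.378, adjusted p = 0.202, limma), and at this depth no difference between the groups was detectable. The size depended on the processing: adding 1 FPKM in place of 0.1 brought the log2 difference to 0.19, adding 0.01 FPKM to 1.04, and voom gave 1.037. It was 0.358 without Control replicate 2 and 1.092 without Control replicate 1.

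A wider list of 46 receptors for chemokines and other attractants held the 9 and 37 more. Of the other 37, 36 were in the tables and 14 had enough reads to be tested. Among these 14, 3 fell and none rose, and all 14 had a log2 fold change below 0 (median -0.30). Of all 11734 genes tested, 11.9% passed as lower and 5822 were below 0, with a median of 0.003. *S1pr4*, a sphingosine-1-phosphate receptor, went from 21.2 ± 1.25 to 15.1 ± 0.0658 FPKM (SD, n = 2 each), on the log2 scale a difference of -0.48 ± 0.0671 SE (limma, adjusted p = 0.00594). *Ptafr*, the receptor for platelet-activating factor, fell by 0.50 on the log2 scale (standard error 0.118, adjusted p = 0.026). *Cmklr1*, the chemerin receptor, fell by 0.43 on the log2 scale (standard error 0.106, adjusted p = 0.0288). Without Control replicate 2, *Ptafr* had an adjusted p of 0.0643 and *Cmklr1* of 0.075, and *Cmklr1* had one of 0.0625 without G-CSF replicate 1. *Ccr7*, which guides dendritic cells to lymph nodes and was named after its values were seen, stood at 75.353 and 58.102 FPKM in Control and 54.526 and 38.269 FPKM with G-CSF (log2 fold change -0.53, standard error 0.179, adjusted p = 0.0713, limma).

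**Figure D4:**
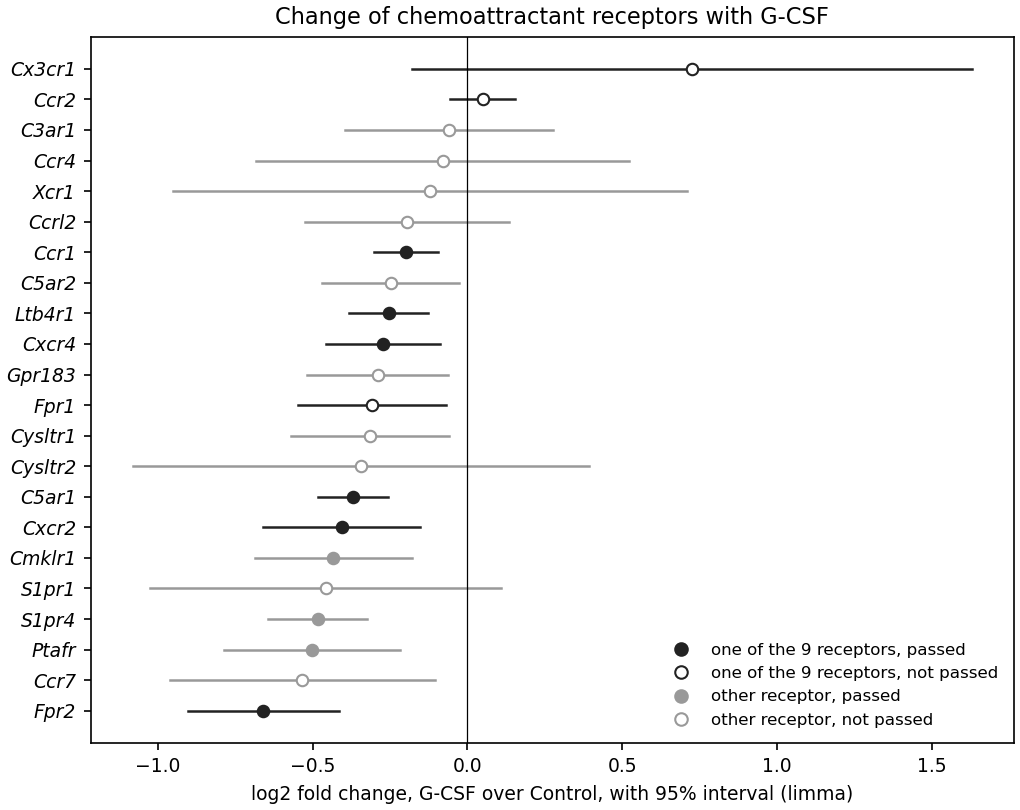
Log2 fold change (G-CSF over Control) with its 95% interval from limma for 22 of the receptors tested, black for the 9 and grey for the others, filled where the adjusted p was under 0.05. Of the 22, 20 lie left of 0, and *Ccr2* and *Cx3cr1* lie right of it with intervals that include 0.

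Upstream of the receptors, 25 of 35 genes for ligands and for the enzymes that make them were tested, of which 10 fell, 3 rose and 12 did not pass (median log2 fold change -0.28). Among all genes tested, 11.9% passed as lower and 25.0% in either direction. *Camp*, the gene of cathelicidin, a ligand of FPR2, fell from 787 ± 43.6 to 225 ± 33.1 FPKM (SD, n = 2 each), on the log2 scale a difference of -1.81 ± 0.0976 SE (limma, adjusted p = 0.00036). It was the only gene of the list to pass with a change over 2-fold, and it is also a granule gene of neutrophil precursors. *Anxa1*, the gene of annexin A1, another FPR2 ligand, fell by 0.39 on the log2 scale (standard error 0.0459, adjusted p = 0.00432). *Alox5*, the lipoxygenase that starts leukotriene synthesis, fell by 0.42 on the log2 scale (standard error 0.043, adjusted p = 0.00312), and *Ppbp*, a CXCR2 ligand, by 0.44 (standard error 0.0721, adjusted p = 0.00959). The genes that rose, named after their values were seen, were *Saa3* (log2 fold change 0.96, adjusted p = 0.0305), *Mif* (0.43, adjusted p = 0.0134) and *Lta4h*, the enzyme that completes leukotriene B4 (0.23, adjusted p = 0.0224, limma).

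Downstream, all 41 genes for G proteins, kinases, Rac regulators and integrins were tested, of which 19 fell, 2 rose and 20 did not pass (median log2 fold change -0.15), where 11.9% of all genes tested passed as lower. *Plcb2*, the phospholipase that G proteins of these receptors activate, stood at 65.022 and 65.019 FPKM in Control and 48.983 and 49.11 FPKM with G-CSF, a log2 difference of -0.41 ± 0.0441 SE (limma, adjusted p = 0.00368). *Itgb2* and *Itgam*, which encode the chains of the integrin CD11b/CD18, fell by 0.36 (standard error 0.0436, adjusted p = 0.00461) and 0.35 (standard error 0.0465, adjusted p = 0.00518) on the log2 scale. *Fgr*, a Src family kinase, fell by 0.30 (standard error 0.0475, adjusted p = 0.00882). Of 22 names for genes that damp the signal, 19 were in the tables and 18 were tested, of which 8 fell, none rose (limma, 1 at an unadjusted p under 0.05, and 0 by voom) and 10 did not pass (median log2 fold change -0.18, against 0.003 over all genes tested). *Gpsm3* (-0.42, adjusted p = 0.00578), *Arrb2*, the gene of an arrestin (-0.35, adjusted p = 0.0073), the receptor kinase gene *Grk5* (-0.39, adjusted p = 0.0104) and *Rgs2* (-0.30, adjusted p = 0.0206, limma) were among them. *Rgs2* did not pass without Control replicate 1 (0.0891) or G-CSF replicate 2 (0.0713).

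**Figure D5:**
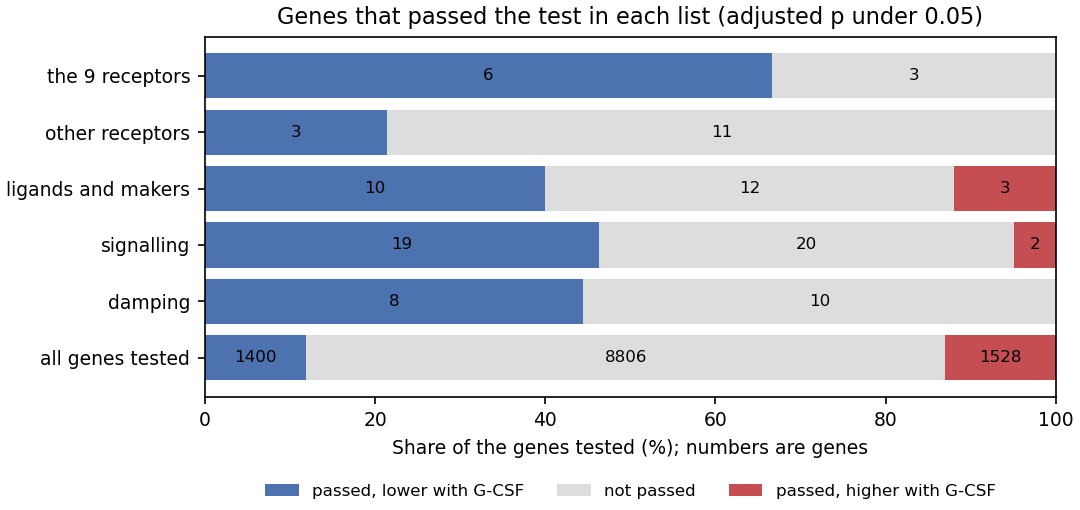
Share of the genes tested in each list that passed as lower (blue) or higher (red) with G-CSF or did not pass (grey), with the number of genes in each part, beside all genes tested. Of the 9 receptors 6 passed as lower, and of all genes tested 1400 did.

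Many of the genes that mark cell types in these cultures also fell, and their counts stand beside the 11.9% of all genes tested that passed as lower. Of 10 neutrophil markers, 9 could be tested and 7 of them fell, and their summed level was 69499.7 to 79948.7 FPKM in Control and 53616.4 to 53991.1 FPKM with G-CSF. Most of this sum was *S100a8* and *S100a9*. For *S100a8* the levels were 35613.3 and 30632.6 FPKM in Control and 25811.8 and 25564.8 FPKM with G-CSF. For *S100a9* they were 31959.1 and 27309.5 FPKM in Control and 20506.4 and 20520.6 FPKM with G-CSF. The adjusted p of *S100a8* was 0.0718 (limma). Among the neutrophil markers, *Retnlg* (log2 fold change -1.81, adjusted p = 0.00402), *Ltf* (-1.32, adjusted p = 0.00267) and *Mmp9* (-1.08, adjusted p = 0.0047, limma) fell by more than 2-fold, each further than *Fpr2* or *Cxcr2*. The rest of those tested, named to complete the list, changed less than *Fpr2* (-0.659). They were *Lcn2* (-0.574), *Ngp* (-0.547), *S100a9* (-0.526), *Cd177* (-0.493), *S100a8* (-0.363) and *Mmp8* (-0.098), of which *S100a8* and *Mmp8* did not pass. All 8 dendritic cell markers were tested and 6 fell, with a sum of 2706.0 to 3155.9 FPKM in Control and 1413.0 to 1751.1 FPKM with G-CSF, among them *H2-Ab1* (-1.09, adjusted p = 0.00396, limma). Of the 9 macrophage markers 6 fell and 1 rose (sum 833 to 848 FPKM in Control, 660 to 722 FPKM with G-CSF). Of 8 monocyte markers 3 fell and 1, *F13a1*, rose (0.32, adjusted p = 0.01, limma), and their sum was 2089.0 to 2171.2 FPKM in Control and 1798.8 to 1863.1 FPKM with G-CSF. The other monocyte genes tested, *Ly6c2* (-0.126), *Klf4* (-0.065) and *Irf8* (-0.047), did not pass. *Ctss*, which fell, stood at 713.6 and 750.752 FPKM in Control and 552.79 and 547.343 FPKM with G-CSF. In flow cytometry of such cultures, the paper saw a larger share of monocytic MDSCs and a smaller share of polymorphonuclear MDSCs with G-CSF. Total cells rose, so that by its counts polymorphonuclear MDSCs were unchanged in number and monocytic MDSCs more numerous. Of the 7 mast cell and basophil markers 5 fell (sum 135 to 138 against 84.7 to 94.5 FPKM), and of the 5 eosinophil markers tested 2 fell (sum 379 to 518 against 288 to 323 FPKM). The part of these shifts in the fall of the receptors was not tested.

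Within the lists, the genes whose levels over the 4 libraries ran closest to each receptor were found by the root mean square difference of centred log2 values, among 81 other receptor, signalling and damping genes. With only 4 libraries this is a description. *Prkcb* (0.0114) and *Grk5* (0.0238) ran closest to *C5ar1*, *Gnai2* (0.0159) and *Gnaq* (0.0209) to *Ccr1*, and *Dock8* (0.0218) and *Rab5a* (0.0261) to *Ccr2*. *Rgs2* (0.0253) and *Pik3r5* (0.0261) were nearest to *Ltb4r1*, and *Gpr183* (0.0464) and *Ltb4r1* (0.0546) to *Cxcr4*. *Cmklr1* was among the nearest pair for *Cxcr2* (0.0589), *Fpr1* (0.0747) and *Fpr2* (0.12), beside *Cysltr1* (0.0692) for *Cxcr2* and *Ptafr* (0.0893) for *Fpr2*. *Cx3cr1* had no near match, with *Rgs1* at 0.348 and *Grk6* at 0.391.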

How the data were processed

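RNA of 2 Control and 2 G-CSF samples, which the study calls biological replicates, was made into stranded mRNA libraries and read over 75 bases from a single end. The deposited values are not whole numbers and no source used here names their unit. They were taken as FPKM made by the authors, because the lowest values rise in steps that shrink with transcript length: with a tolerance of 0.05 reads, 64.7% to 70.0% of them were whole (10.0% would be by chance). The submitters' processing notes name TopHat2 2.0.13, Bowtie2 2.2.3, SAMtools 0.1.19, Cufflinks 2.2.1 and mm10, the build called GRCm38 here. The annotation is not given in the sources used here. From these FPKM values, reads were estimated with the median length of the protein-coding transcripts (GENCODE M21) less 210 bases, and a gene was tested where 2 libraries held 10 or more of them and the total was 15 or more. The 362 genes without a length and 1344 short or small RNA genes were left out.

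G-CSF was compared with Control by limma 3.58.1 (lmFit, eBayes with trend, two-sided, R 4.3.3) on log2(FPKM + 0.1), with Benjamini-Hochberg adjustment over all 11734 genes tested. The values were not rescaled. The p-values rest on the spread between 2 samples a group, which limma draws toward that of other genes at like levels. No source used here says what a replicate shares. Ratios of 2 receptors within a library were compared by exact permutation. The genes named are the 9 receptors, other receptors that passed, and for each further list the 4 with the smallest p and those over 2-fold, genes beside a receptor on its chromosome are named for their place, and any others are marked. The lists, motifs and markers were written from general knowledge, with earlier results of these data known. The marker list for hepatocytes was used to check the labels, and those for T, B and NK cells and for erythroid cells and megakaryocytes are given among the other observations. Promoters came from RefSeq (GRCm38.p6), where 9 of the 9 symbols matched, and positions and transcripts from GENCODE M21. Values of 2 list members are not reported here, although they stay in the counts. The steps were tested on simulated libraries. Alternatives were other scalings, filters and pseudocounts, voom, the replicate number as a block, and each library left out.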

Additional observations from a re-analysis of the deposited data

How the results depend on the processing

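*Fpr2* and *C5ar1* passed under all 12 alternatives, and no receptor of the 9 changed direction under any. The 6 receptors passed as a set under both scalings, both pseudocounts and a minimum of 1 FPKM in every library, where *Cx3cr1* was not tested. With no filter 4 of the 9 passed (*Cxcr2*, adjusted p = 0.103, and *Cxcr4*, 0.113, did not), and with voom 5 (*Cxcr4*, 0.0522). With each library left out, 3 to 5 of the 9 passed, 3 without Control replicate 1; the lone library of a group was assumed to vary like the others. The counts of all genes were 1626 with no filter and 1663 to 1995 with a library left out, against 2928, and over 2-fold they were 76 with at least 1 FPKM in every library and 57 with a pseudocount of 1 FPKM, against 159. With no filter, 4 ligand, 10 signalling and 5 damping genes passed, against 13, 21 and 8, and 7 to 12 signalling and 4 to 5 damping genes with a library left out. The cause was not tested. Upper-quartile scaling made 55.8% of the genes that passed lower, against 47.8%. Deviations from the group means of libraries that share a replicate number were correlated (r = 0.28 across 11734 genes), but only 2 pairs exist and no label says what a number marks. With the replicate number as a block, 4040 genes and 7 of the 9 receptors passed, *Fpr1* included (adjusted p = 0.00108). Of the other genes named, *Ccr7* (0.00029), *Ear1* (0.00118), *Nkg7* (0.00131), *S100a8* (0.0158), *Gpr183* (0.0474) and *Cysltr1* (0.049) passed only with the block among these 2 fits. *Pf4* was 0.01 and turned to -0.015 with upper-quartile scaling, and ranged from -0.106 to 0.127 with a library left out, and *Ear2* (-0.248) ranged from -0.529 to 0.032.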

Other observations

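Several receptors that mark other leukocytes were scarce in these cultures, although *Ccr7*, described above, stood at 38.269 FPKM or more in every library. Of the 45 receptors of the wider list in the tables, 7 were listed at 0 in every library, among them *Ccr8*, *Ackr2* and *Ptgdr2*. *Ccr3*, the eotaxin receptor of eosinophils, stood at 0.146 FPKM or less in every library, while the eosinophil granule genes *Prg2* (Control 257 ± 48.9 FPKM, G-CSF 157 ± 28.9 FPKM, SD, n = 2) and *Epx* (39.0 ± 6.36 and 25.1 ± 3.10 FPKM) were well expressed. Of the same marker list, *Ear2* stood at 104.949 FPKM or more and *Ear1* at 9.859 to 24.004 FPKM. *Siglecf* stood at only 3.153 to 3.453 FPKM and *Il5ra* at 0.253 FPKM or less. *Cxcr3*, a receptor of activated T cells, stood at 0.172 FPKM or less and *Cxcr5*, which guides B cells, at 0.2 FPKM or less. These genes were named after their values were seen. Markers of T, B and NK cells summed to between 9.96 and 14.1 FPKM (Control) and between 12.2 and 17.5 FPKM (G-CSF), and of the 3 tested *Cd79a* fell (log2 fold change -0.98, adjusted p = 0.0178, limma). Most of each sum was *Nkg7*, at 10.358 and 6.989 FPKM in Control and 15.131 and 10.258 FPKM with G-CSF. *Nkg7* did not pass (log2 fold change 0.545, adjusted p = 0.126, limma). Markers of erythroid cells and megakaryocytes summed to between 32.3 and 36.2 FPKM (Control) and between 32.7 and 33.6 FPKM (G-CSF), and 0 of the 2 tested passed with limma (no unadjusted p was under 0.05).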
